A study of Mus musculus with 21 samples.

Results

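Open chromatin was examined near the genes of the conjugation enzymes, which attach a water-soluble group to drugs, steroids, bilirubin and other compounds so that they can be excreted. The genes were the 57 autosomal protein-coding genes, of 21418 in the GENCODE annotation of the mouse build mm9, whose symbols begin with Sult (sulfotransferases), Ugt1, Ugt2 or Ugt3 (UDP-glycosyltransferases), or Gsta, Gstm, Gstp, Gstt, Gstk or Gstz (glutathione S-transferases). A DNase-seq region belonged to a gene when it overlapped the gene body or lay within 10 kb of it. Of the 68362 regions formed by merging the peaks of all livers, 151 belonged to 51 of the 57 genes. No region lay near Sult1c1, Sult2a2, Sult2a3, Sult2a4, Sult2a5 or Gstm2-ps1, the last a name of pseudogene form that the annotation types as protein-coding.

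DNase-seq releases short fragments from nuclei lightly cut with DNase I, so that open chromatin appears as peaks of reads. Each library came from the liver of 1 untreated, pituitary-intact male CD-1 mouse, an outbred stock, aged 8 to 10 weeks. A gel shift assay of STAT5 DNA binding in an extract of the same liver set the class, and there were 8 STAT5_High and 10 STAT5_Low livers. The comparison asked whether open chromatin differs between livers in which STAT5 is active and livers in which it is not. A further 3 livers that the submitters titled outlier were not analysed here, so the livers compared were chosen in part by their DNase-seq profile, on which the submitters set those 3 aside, and in 2 of the 3 the title and the treatment label named different classes. The tissue was whole liver, in which fewer cells of a type and less open chromatin per cell cannot be told apart.

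Growth hormone reaches the male liver in pulses, and each pulse activates STAT5, a transcription factor that binds DNA as a dimer at a palindromic motif. Pulsed growth hormone is a source of the sex differences in liver metabolism, and many sulfotransferases, glucuronosyltransferases and glutathione transferases are expressed unequally in male and female rodent livers. Sulfotransferases take sulfate from the donor PAPS, Ugt1 and Ugt2 enzymes take glucuronic acid from UDP-glucuronic acid, and glutathione transferases join glutathione to reactive compounds.

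Stretches are shown to place the STAT5 motif TTCNNNGAA, which reads alike on both strands. They come from the called regions and from regions with the smallest p-value of their family, the latter chosen because they held the motif. Letters are the plus strand of the mm9 reference, 5′ to 3′, with the motif in capitals. The Sult5a1 stretch (chr8:125686793-125686942) and the Gsta2 stretch (chr9:78202553-78202702) come from the regions whose pileup differed between the classes. The Ugt2b35 (chr5:87423657-87423806) and Ugt2b38 (chr5:87854593-87854742) stretches come from the Ugt2 regions with the smallest p-values. The Gsta3 (chr1:21243132-21243281) and Gstk1 (chr6:42204527-42204676) stretches come from regions with the smallest presence p-value of their families that held the motif. The Gstk1 region was the only 1 of its family in the presence test, with a peak in 3 STAT5_High and 4 STAT5_Low livers. The Gstm1 region with the smallest presence p-value held the motif as well, but there it lay outside the stretch left after annotated exons were avoided, so none is shown.
Sult5a1: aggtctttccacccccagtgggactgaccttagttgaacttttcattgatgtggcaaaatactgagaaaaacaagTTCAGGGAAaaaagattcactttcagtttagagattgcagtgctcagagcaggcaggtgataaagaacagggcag
Gsta2: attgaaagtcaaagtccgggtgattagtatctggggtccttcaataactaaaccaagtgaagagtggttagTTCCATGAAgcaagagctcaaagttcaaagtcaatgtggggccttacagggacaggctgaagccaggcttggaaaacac
Ugt2b35: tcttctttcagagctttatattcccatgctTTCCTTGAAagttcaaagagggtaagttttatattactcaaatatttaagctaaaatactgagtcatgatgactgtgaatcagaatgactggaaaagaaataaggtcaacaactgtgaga
Ugt2b38: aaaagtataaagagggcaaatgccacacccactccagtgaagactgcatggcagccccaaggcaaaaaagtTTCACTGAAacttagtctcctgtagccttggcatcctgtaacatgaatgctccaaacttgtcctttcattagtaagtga
Gsta3: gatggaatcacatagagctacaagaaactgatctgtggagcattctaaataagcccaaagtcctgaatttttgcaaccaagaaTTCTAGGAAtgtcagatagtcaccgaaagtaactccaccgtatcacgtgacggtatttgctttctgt
Gstk1: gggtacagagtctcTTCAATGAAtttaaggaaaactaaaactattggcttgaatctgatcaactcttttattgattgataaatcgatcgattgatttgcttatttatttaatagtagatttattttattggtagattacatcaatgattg

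The distance of the motif from the summit, the point of highest signal, differed among these regions. It was 8 bp at Sult5a1 and 23 bp at Gsta3. It was 83 bp at Ugt2b35, 84 bp at Gstm1, 115 bp at Gstk1, 214 bp at Gsta2 and 274 bp at Ugt2b38. Over the 151 regions, 33 (21.9%) held the motif, against 20.3% of all 68362 regions, whose median width was 546 bp against 602 bp near the conjugation genes. The share was 42.4% in Ugt2 (14 of 33 regions) and 29.0% in Sult (9 of 31). It was 5.56% in Ugt1 (1 of 18) and 8.70% in Gstm (2 of 23). The antioxidant response element, written TGACNNNGC and searched on both strands, lay in 35 regions (23.2%, against 23.5% of all regions). The largest shares were in Ugt3 (4 of 8 regions) and Gstz (1 of 2). Next came Gsta with 42.9% (6 of 14) and Gstm with 34.8% (8 of 23). The element lay in 3 of 13 regions in Gstt, 1 of 5 in Gstp and 3 of 18 in Ugt1. In Sult it lay in 5 of 31, in Ugt2 in 4 of 33 and in Gstk in 0 of 4. These matches are letters in a window and were not tested for binding.

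Signal heights are given below as scaled pileup, the authors' pileup (the number of extended reads over a peak's summit) per 1000000 tags of the library, taken from the highest peak of a region in each liver. Libraries held 12890880 to 23395665 tags and 18673 to 45144 peaks. STAT5_High replicate 4 stood apart, with the fewest peaks and a peak at 45 of the 151 regions, against 74 to 100 in the other STAT5_High livers and 80 to 110 in STAT5_Low livers. Promoter peaks of the hepatocyte genes Alb, Apoa1, Ttr and Cps1 were present in all 18 livers, and Serpina1a had none in any. None of the 4 Kupffer cell markers had a promoter peak in any liver. Of the other cell type markers, Stab2 and Sox9 had one in all livers, Reln in 7 STAT5_High and all 10 STAT5_Low livers, Clec4g in 3 and 5, and Kdr in 2 and 2, while Lyve1, Lrat, Des, Pdgfrb, Krt19, Krt7 and Epcam had none. Title prefixes placed the livers in 3 collections, and no label explains them: G74A held 2 STAT5_High and 5 STAT5_Low livers, G92 held 3 and 2, and G99 held 3 of each class.

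Regions near conjugation genes ranged from those open in every liver to those open in a single one. A peak was present in all 18 livers at 31 of the 151 regions (20.5%, against 17.2% of all regions), and in a single liver at 18 (11.9%, against 21.6%). By position, 55 regions lay within 1 kb of the transcription start of a protein-coding gene, called promoters here, 46 between genes, 38 in introns and 12 in coding exons. A promoter region was found at 34 of the 57 genes, and at 12 of them it held a peak in every liver. Those were the promoters of Gsta2, Gsta3, Gstm1, Gstm7, Gstp1, Gstz1, Sult1a1, Sult1b1, Ugt1a5, Ugt2a3, Ugt2b1 and Ugt2b35. At Gsta2 this was a region with its summit 753 bp inside the gene. The region over the Gsta2 start itself had a peak in 2 STAT5_High and 7 STAT5_Low livers. In the Sult2a cluster of hydroxysteroid sulfotransferases, Sult2a1 had 1 region, Sult2a6 had 2 and the rest had none. Peaks were called on uniquely mapped reads, per the file headers, so that reads shared by near-identical copies do not enter. Whether this bears on the Sult2a genes without a region was not tested.

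The share of regions with a peak was 56.7% ± 12.1 in STAT5_High livers and 64.8% ± 6.09 in STAT5_Low livers (SD, n = 8 and 10). Over all 68362 regions the means were 46.3% and 52.8%. Without STAT5_High replicate 4 the STAT5_High share was 60.5% ± 5.80 (SD, n = 7), and 20 regions lacked a peak in that liver alone. By family, Ugt1 regions were occupied in 36.1% ± 8.91 of cases in STAT5_High livers and 51.1% ± 11.4 in STAT5_Low livers. Gsta regions were occupied in 54.5% ± 8.48 and 66.4% ± 8.94, and Gstm regions in 56.5% ± 20 and 70.9% ± 11. Ugt2 regions were occupied in nearly equal shares, 55.7% ± 10.5 in STAT5_High livers and 55.2% ± 6.97 in STAT5_Low livers. Sult regions were occupied in 57.3% ± 11 and 63.5% ± 8.20, and Gstt regions in 76.0% ± 19.5 and 88.5% ± 6.54. No test was made of these shares. Without STAT5_High replicate 4 the STAT5_High means became 38.1% in Ugt1, 56.1% in Gsta, 62.7% in Gstm, 58.9% in Ugt2, 60.8% in Sult and 81.3% in Gstt. In Ugt3 the shares were 45.3% in STAT5_High and 48.8% in STAT5_Low livers with all livers and 50% in STAT5_High without that replicate. In Gstk they were 78.1% and 82.5%, and 85.7% in STAT5_High without it. Ugt2, which was already the higher in STAT5_High by 55.7% to 55.2%, Ugt3 and Gstk were then higher in STAT5_High, Gstz was equal at 100%, and the other 6 families, Gstp among them (80.0% and 88.0%), were lower.

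**Figure D1:**
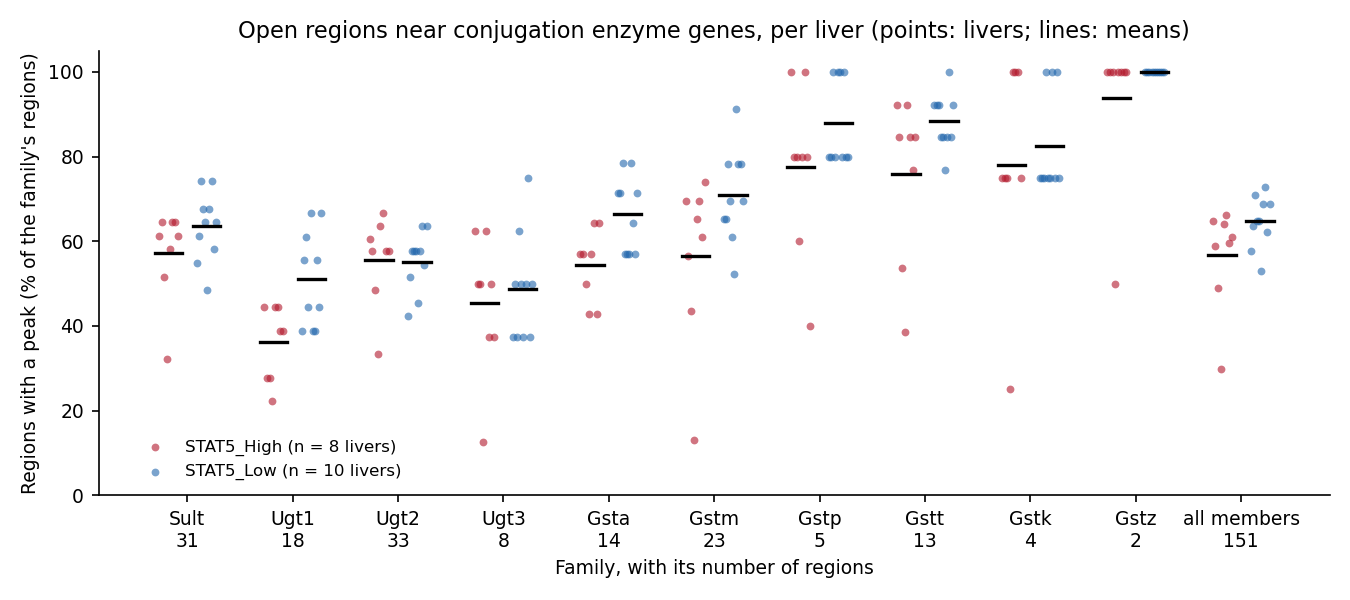
The percentage of each family's regions that held a peak (vertical axis) is plotted for each liver, with STAT5_High in red and STAT5_Low in blue and lines at the class means. The lowest STAT5_High point among all members, 29.8%, is STAT5_High replicate 4.

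No conjugation region passed the test of presence. Of the 151 regions, 40 had a peak in 5 to 13 livers and entered Fisher's exact test (two-sided), with Benjamini-Hochberg adjustment over 15631 such regions, and 0 of the 40 had an adjusted p under 0.05. Over all 15631 regions 1.11% were called, 0.979% towards STAT5_High and 0.134% towards STAT5_Low. At an unadjusted p under 0.05 there were 3 of the 40 (7.5%), all with more STAT5_High livers, which is below the 14.1% over all 15631 regions. Those comprised 940 regions with a larger share of STAT5_High livers and 1265 with a larger share of STAT5_Low livers. Of the remaining regions, 31 had a peak in every liver, 40 in 14 to 17 livers and 40 in 1 to 4.

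**Figure D2:**
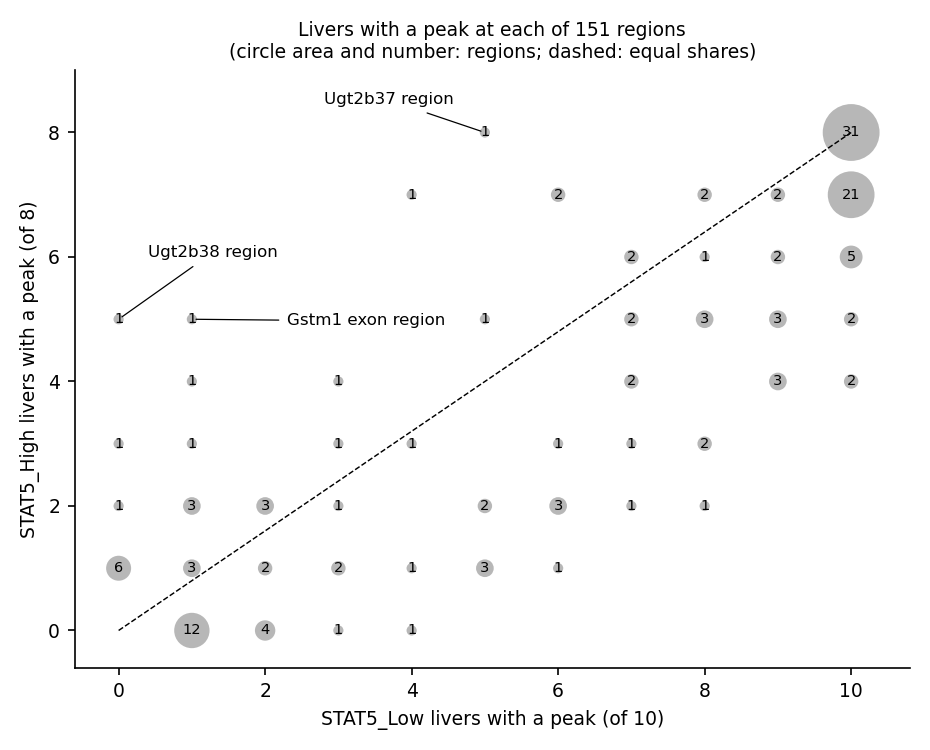
Each of the 151 regions is placed by the number of STAT5_Low livers (horizontal axis, of 10) and STAT5_High livers (vertical axis, of 8) that held a peak there, and circle area and number give the regions at each place. The 31 regions with a peak in every liver sit at the top right, and the Ugt2b38 region sits alone at 5 STAT5_High and 0 STAT5_Low livers.

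The 3 regions with the smallest presence p-values lay near glucuronosyltransferase and glutathione transferase genes. A region 1714 bp upstream of the start of Ugt2b38 (chr5:87854463-87855204), one of the clustered Ugt2b genes whose enzymes act on steroids and foreign compounds, was open in 5 of the 8 STAT5_High livers and in 0 of the 10 STAT5_Low livers (Fisher's exact test, p = 0.00654, adjusted p = 0.137). Its scaled pileup in those 5 livers ran from 0.628 to 2.11, with a median of 1.38. A region 1304 bp upstream of Ugt2b37 (chr5:87684709-87685404) was open in all 8 STAT5_High livers and in 5 STAT5_Low livers (exact p = 0.0359, adjusted p = 0.303). A coding-exon region of Gstm1 (chr3:107817965-107818314), a major mu-class transferase of mouse liver, had a peak in 5 STAT5_High livers and 1 STAT5_Low liver (exact p = 0.0430, adjusted p = 0.305). Exons of Gstm genes resemble each other, and only uniquely mapped reads entered the peak calls. How far this limits the reads counted at that exon was not tested.

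The smallest presence p-values of the other families were larger. In Sult it was a region in Sult1b1 (chr5:87966106-87966625), a sulfotransferase of thyroid hormones and phenols, with a peak in 1 STAT5_High and 6 STAT5_Low livers (exact p = 0.0656, adjusted p = 0.354). In Gsta it was the Gsta3 intron region (chr1:21242784-21243598), with a peak in 7 STAT5_High and 4 STAT5_Low livers (exact p = 0.0656, adjusted p = 0.354). Its scaled pileup was 1.83 to 2.99 in those STAT5_High livers, median 2.26, and 1.06 to 1.81 in the 4 STAT5_Low livers, median 1.42. Livers without a peak have no value in these ranges. Gsta3 encodes the alpha-class enzyme that detoxifies the aflatoxin epoxide in mice. Each list was also cut to the 18673 peaks with the smallest peak-calling q, the number in the shortest list. The Gsta3 intron region then had a peak in 7 STAT5_High livers and 1 STAT5_Low liver and was called (adjusted p = 0.0476, Fisher's exact test over 8178 regions). So was a region 2657 bp beyond the end of Ugt2a1 (chr5:87884963-87885824), with 6 STAT5_High and 0 STAT5_Low livers (adjusted p = 0.0293). These were 2 of 25 conjugation regions tested in that setting, in which 6.05% of all regions were called, 5.56% towards STAT5_High and 0.489% towards STAT5_Low. Ugt2a1 is best known for the glucuronidation of odorants in the nose. The smallest presence p-values of the remaining families were at regions of Ugt1a6b (4 STAT5_High and 9 STAT5_Low livers, exact p = 0.118), Gstt2 (7 and 6, exact p = 0.314), Gstp1 (4 and 7, exact p = 0.630) and Gstk1 (3 and 4, exact p = 1.00).

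Height was compared at the 31 conjugation regions that had a peak in all 18 livers. On the log2 scale of scaled pileup, limma with a variance trend and Benjamini-Hochberg adjustment over all 11748 such regions called 2 of the 31, 1 in each direction. Over all 11748 regions 4.09% were called, 3.86% higher in STAT5_High and 0.238% lower. The median log2 difference of all tested regions was -0.17 and that of the 31 was -0.22, so each difference is also given relative to -0.17. With each library scaled to its median common region, the median of all regions was -0.06, and 2 of the 31 regions were called higher and 3 lower, against 7.35% and 1.23% of all regions. With fold enrichment in place of pileup, 1 was called higher and 0 lower, against 3.15% and 0.238% of all regions (3.39% in all).

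**Figure D3:**
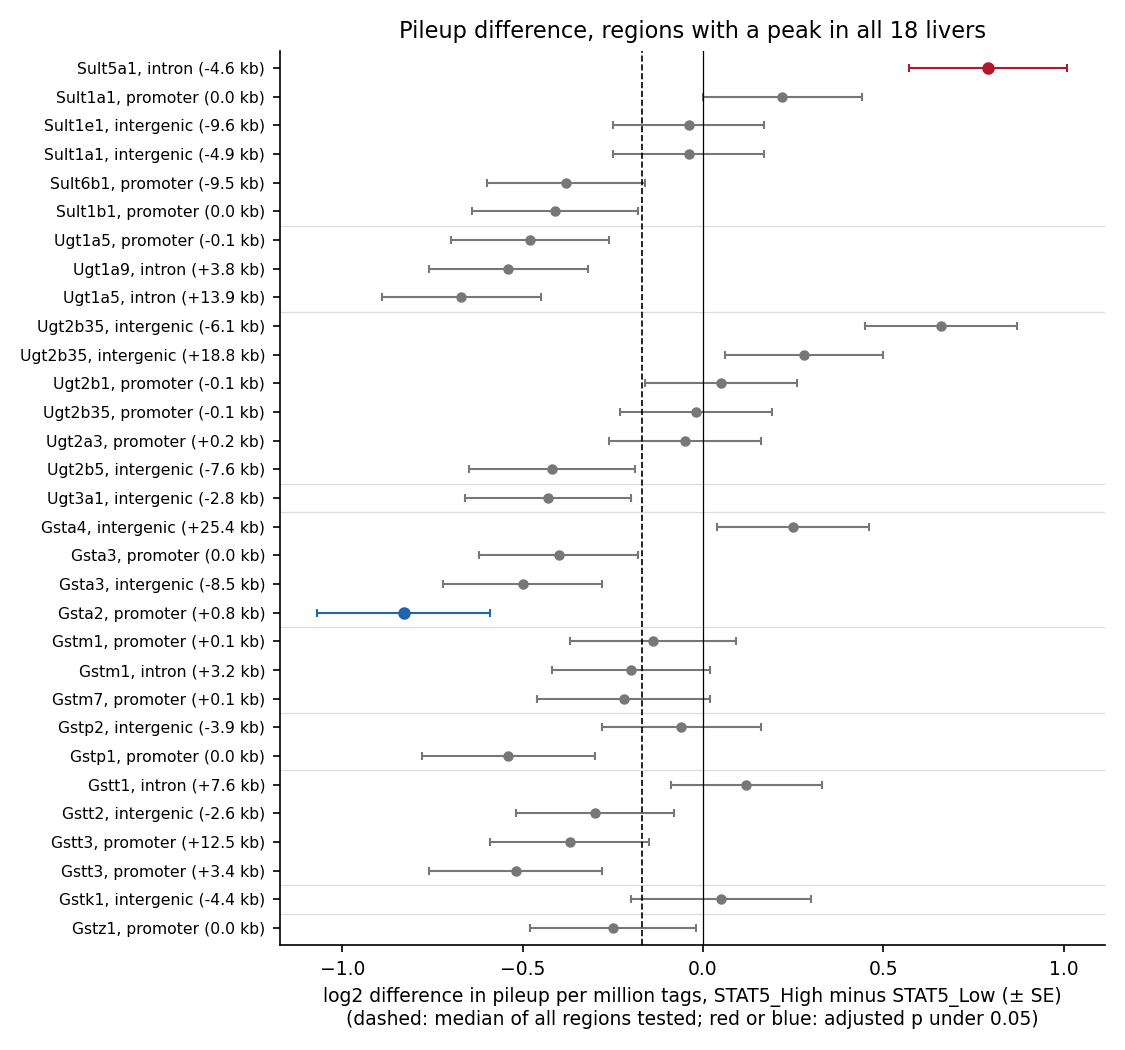
The log2 difference in scaled pileup, STAT5_High minus STAT5_Low, with its standard error (horizontal axis) is plotted for the 31 regions, labelled by gene, position and distance of the summit from the transcription start and grouped by family. Sult5a1 at 0.79 (red) and Gsta2 at -0.83 (blue) passed the test, and the dashed line marks the median of all regions, -0.17.

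Sult5a1, a sulfotransferase gene whose substrates are little known, had a higher distal region in STAT5_High livers. The region (chr8:125686590-125687315) had its summit 4649 bp upstream of the start of Sult5a1 and lay in an intron of Gm20388, an annotated gene that spans the same stretch. Its scaled pileup was 3.66 at the lowest, 5.66 at the median and 8.78 at the highest in STAT5_High livers, and 2.10, 3.67 and 4.24 in STAT5_Low livers. The classes overlapped: STAT5_High replicates 4 and 7, at 3.66 and 3.94, lay within the STAT5_Low range, and the other 6 lay above it. The means were 5.88 ± 1.83 and 3.37 ± 0.814 (SD, n = 8 and 10), a log2 difference of 0.79 ± 0.22 (SE; adjusted p = 0.0231, limma), or 0.96 relative to all regions.

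The Sult5a1 call held under all 8 other processing settings tried on the 18 livers, with adjusted p between 0.00116 and 0.0231 (limma), but not in every smaller set of livers. It was lost without STAT5_High replicate 5 (0.70, adjusted p = 0.0808), STAT5_High replicate 6 (0.71, adjusted p = 0.0756), STAT5_Low replicate 3 (0.73, adjusted p = 0.0675) or STAT5_Low replicate 6 (0.72, adjusted p = 0.0549). Within single collections the limma difference was 0.78 in G74A, 1.33 in G92 and 0.53 in G99, with adjusted p of 0.212, 0.976 and 0.222. Fold enrichment over the local background, MACS2's ratio within each library, was 13 ± 1.28 in STAT5_High and 9.75 ± 1.51 in STAT5_Low livers (adjusted p = 0.0168, limma). In the lists called on the pooled reads of each class, the region had a scaled pileup of 5.80 and 3.29. The promoter region of Sult5a1 (chr8:125682461-125683383) had a peak in 6 STAT5_High and 10 STAT5_Low livers, at 2.58 ± 0.921 and 1.56 ± 0.307 in the livers with a peak. It entered neither main test. It did enter the limma fit of regions with a peak in at least 4 livers of each class, and was not called there. Nor was it called by Fisher's exact test on regions occupied in 1 to 17 livers.

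Gsta2, an alpha-class glutathione transferase gene known for its induction by oxidative stress and foreign compounds, had a lower region just inside the gene in STAT5_High livers. The region (chr9:78202482-78203135) had its summit 753 bp downstream of the start. Its scaled pileup was 0.706, 1.20 and 2.82 (lowest, median and highest) in STAT5_High livers and 1.03, 2.27 and 3.30 in STAT5_Low livers. The ranges overlapped broadly, and STAT5_High replicate 1 held the high value of its class, with the other 7 between 0.706 and 1.63. The means were 1.34 ± 0.690 and 2.26 ± 0.674 (SD, n = 8 and 10), a log2 difference of -0.83 ± 0.24 (SE; adjusted p = 0.0268, limma), or -0.66 relative to all regions.

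The Gsta2 call was lost under more settings. It was lost with fold enrichment, which was 6.27 ± 1.76 and 8.36 ± 2.05 (log2 difference -0.42, adjusted p = 0.196, limma), and with a stricter peak threshold the region was not tested, since it no longer had a peak in every liver. It was also lost without STAT5_High replicate 2 (adjusted p = 0.0782), 4 (0.0596), 5 (0.108) or 7 (0.0520), or without STAT5_Low replicate 2 (0.0593) or 8 (0.0599), by the same limma fit. Within collections the difference was -0.28 in G74A, -1.24 in G92 and -1.07 in G99, with adjusted p of 0.852, 0.976 and 0.0177. The pooled lists had 1.12 in STAT5_High and 1.99 in STAT5_Low. The other 4 regions of Gsta2 had fewer peaks in STAT5_High livers, with 4 and 10 livers, 2 and 7, 2 and 5, and 5 and 9 livers in the classes, and no test called any of them.

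**Figure D4:**
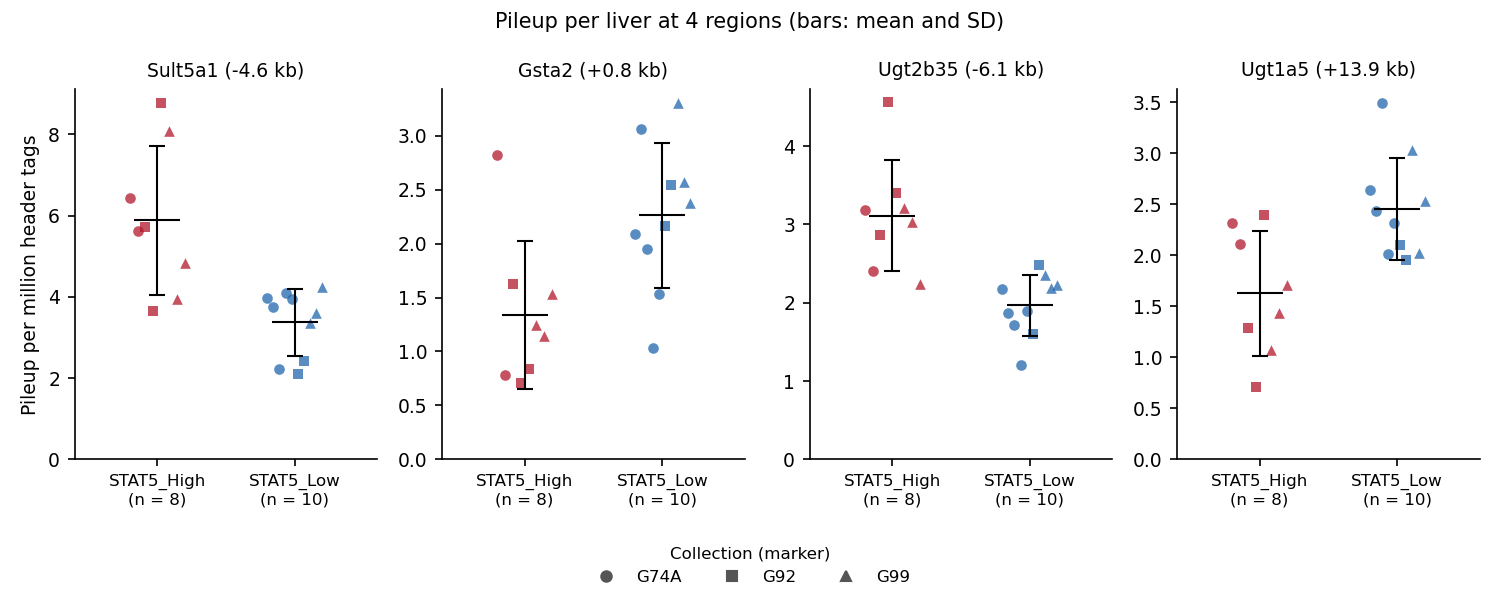
Scaled pileup (vertical axis) is plotted for each liver at regions of Sult5a1, Gsta2, Ugt2b35 and Ugt1a5, with STAT5_High left of STAT5_Low, bars for the mean and SD, and marker shape for the collection. At Sult5a1, 6 of 8 STAT5_High livers lie above all STAT5_Low livers, and at Gsta2 STAT5_High replicate 1, at 2.82, lies apart from its class.

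**Figure D5:**
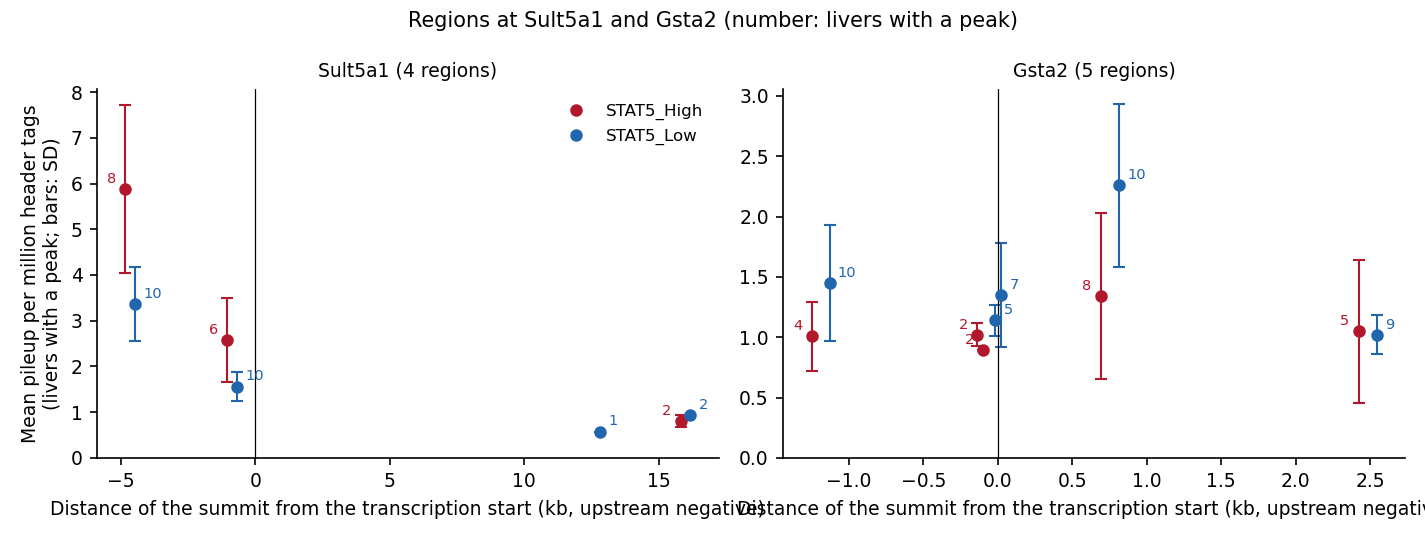
Mean scaled pileup in the livers with a peak (vertical axis, bars for the SD) is plotted against the distance of the summit from the transcription start for the 4 regions of Sult5a1 and the 5 of Gsta2. STAT5_High (red) is drawn just left of STAT5_Low (blue), and numbers give the livers with a peak; the region of Sult5a1 that passed the test lies 4649 bp upstream.

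The other sulfotransferase regions open in every liver did not pass the test. Sult1a1, the main phenol sulfotransferase of liver, had the Sult region of highest mean pileup, 4885 bp upstream of its start (chr7:133824644-133825312), at 4.17, 5.63 and 9.61 in STAT5_High livers and 3.93, 6.07 and 8.16 in STAT5_Low livers (log2 difference -0.04 ± 0.21). The classes spanned nearly the same range there. At the Sult1a1 promoter the means were 3.19 ± 1.06 and 2.69 ± 0.697 (0.22 ± 0.22, adjusted p = 0.609, limma). The Sult1b1 promoter had means of 1.83 ± 0.498 and 2.46 ± 0.737 (-0.41 ± 0.23, adjusted p = 0.429, limma). A region upstream of Sult1e1, the estrogen sulfotransferase, had 3.44 ± 1.14 and 3.46 ± 0.719 (-0.04 ± 0.21).

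Near Sult4a1, a sulfotransferase-like gene known mainly from brain, a region 9146 bp from the gene (chr15:83945330-83946195), in a coding exon of the neighbouring lipase gene Pnpla5, lacked a peak in STAT5_High replicate 4 only. Its scaled pileup was 2.09, 3.86 and 8.13 in the 7 STAT5_High livers with a peak and 1.21, 1.79 and 4.39 in the 10 STAT5_Low livers. Leaving out STAT5_High replicate 4, which left 17964 regions with a peak in all 17 livers, brought it into the test, with a log2 difference of 1.00 ± 0.25 (adjusted p = 0.00695, limma); 4.58% of all regions were called higher and 0.334% lower in that fit, 4.92% in all. Sult5a1 was then at 0.88 (adjusted p = 0.00145) and Gsta2 at -0.72 (adjusted p = 0.0596). Within G99 the Sult4a1 region was called as well, at 1.47 ± 0.28 (adjusted p = 0.000903, limma). That fit tested 23626 regions, 69 of them near conjugation genes, and called regions of Gsta2 and Ugt2b5 lower. The count of all regions called lower within G99 is given below with the other settings. The count called higher is not given, so the Sult4a1 call within G99 has no share of all regions beside it.

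Ugt1 genes share their last exons and differ in their first, so that a region can lie within several Ugt1a genes at once. The largest of the 3 Ugt1 differences was in an intron region 13914 bp inside Ugt1a5 (chr1:90076032-90076706) that also lies in 6 other Ugt1a gene bodies. It had 0.706, 1.57 and 2.39 in STAT5_High livers and 1.95, 2.38 and 3.49 in STAT5_Low livers. In STAT5_High livers, 3 values reached into the STAT5_Low range, and the difference of -0.67 ± 0.22 missed the threshold (adjusted p = 0.0768, limma). The Ugt1a9 intron region (chr1:89970854-89971611), the highest of the family, had 1.35, 2.47 and 4.13 in STAT5_High livers and 2.39, 3.71 and 5.60 in STAT5_Low livers (-0.54 ± 0.22, adjusted p = 0.231, limma). At the Ugt1a5 promoter the means were 1.47 ± 0.486 and 2.00 ± 0.512 (-0.48 ± 0.22, adjusted p = 0.316, limma). With libraries scaled to the median common region the Ugt1a5 and Ugt1a9 intron regions were called lower (-0.56 and -0.43, adjusted p = 0.0156 and 0.0333, limma), a setting in which 8.59% of all regions were called. The Ugt1a5 region was also called without STAT5_High replicate 1 (-0.76, adjusted p = 0.0380) or replicate 5 (-0.76, adjusted p = 0.0478), by the same limma fit. All 3 Ugt1 regions kept a negative sign under both other scalings. No region tested in pileup lay near Ugt1a1, the bilirubin-conjugating form. Its 1 region within 10 kb (chr1:90103131-90103790) had a peak in 5 STAT5_High and 7 STAT5_Low livers, and the presence test did not call it.

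Of the 6 Ugt2 regions open in every liver, none passed the test, and the nearest to it had a higher pileup in STAT5_High livers. It lay 6111 bp upstream of Ugt2b35 (chr5:87423292-87424166) and had 2.24, 3.11 and 4.56 in STAT5_High livers and 1.20, 2.04 and 2.48 in STAT5_Low livers. Only the lowest STAT5_High livers overlapped the STAT5_Low range, and the highest value, 4.56, came from STAT5_High replicate 4. The difference of 0.66 ± 0.21 was just above the threshold (adjusted p = 0.0562, limma), and it was called with median scaling (0.77, adjusted p = 0.0144), with a pseudocount of 0.5 (0.54, adjusted p = 0.0494) and when regions with a peak in at least 4 livers of each class were tested (adjusted p = 0.0405). It was also called without STAT5_High replicate 2 (0.71, adjusted p = 0.0483) or 8 (0.72, adjusted p = 0.0476), or without STAT5_Low replicate 7 (0.70, adjusted p = 0.0399) or 8 (0.69, adjusted p = 0.0491), and with the replicate number as a block in the same-numbered livers (0.71, adjusted p = 0.0484), by limma. Leaving out any other single liver, STAT5_High replicate 4 among them, did not bring the upstream region past the threshold. The Ugt2b35 promoter had 2.97 ± 0.534 in STAT5_High and 3.03 ± 0.648 in STAT5_Low livers (-0.02 ± 0.21). Near Ugt2b5, another gene of the cluster, the highest Ugt2 region (chr5:87576766-87577572) had 2.18, 6.06 and 7.46 in STAT5_High livers and 4.49, 7.14 and 11.9 in STAT5_Low livers (-0.42 ± 0.23, adjusted p = 0.428, limma). Within G99 alone that region was called lower (-0.74, adjusted p = 0.0490, limma). The promoters of Ugt2b1 and Ugt2a3 had means of 6.10 ± 1.54 and 5.90 ± 1.63, and of 2.26 ± 0.768 and 2.27 ± 0.469.

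Testing regions with a peak in at least 4 livers of each class, with livers without a peak left out of the fit, took in 88 conjugation regions of 30330. In that fit 4 were called higher and 1 lower, and 3.48% and 0.175% of all regions were. Sult4a1, Ugt2b35 and Sult5a1 were among the higher ones and Gsta2 was the lower one. The fourth was the region 2657 bp beyond Ugt2a1 (chr5:87884963-87885858), with a peak in 7 STAT5_High and 8 STAT5_Low livers. Its scaled pileup was 1.33, 2.11 and 3.64 in the STAT5_High livers and 0.603, 1.00 and 1.24 in the STAT5_Low livers with a peak (1.15 ± 0.22, adjusted p = 0.000493, limma).

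Ugt3 enzymes, which in humans use sugars other than glucuronic acid, had 1 region in every liver, 2762 bp upstream of Ugt3a1 (chr15:9206640-9207127). It had 0.899, 1.83 and 3.34 in STAT5_High livers and 1.64, 2.34 and 4.83 in STAT5_Low livers (-0.43 ± 0.23, adjusted p = 0.421, limma). The Ugt3a1 promoter had 1.95 ± 0.370 in 7 STAT5_High livers and 2.60 ± 0.655 in 10 STAT5_Low livers. A Ugt3a2 promoter region had a peak in 2 STAT5_High and 6 STAT5_Low livers (exact p = 0.188, adjusted p = 0.531).

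Among the other alpha-class regions, the highest lay 8502 bp upstream of Gsta3 (chr1:21221716-21222632). It had 2.12, 4.83 and 6.44 in STAT5_High livers and 4.54, 6.78 and 8.74 in STAT5_Low livers (-0.50 ± 0.22, adjusted p = 0.285, limma). The Gsta3 promoter had 3.29 ± 0.692 and 4.52 ± 1.56 (-0.40 ± 0.22, adjusted p = 0.428, limma). Beyond Gsta4, whose enzyme conjugates the lipid peroxidation product hydroxynonenal, the means were 4.75 ± 0.991 and 4.0 ± 0.815 (0.25 ± 0.21, adjusted p = 0.565, limma).

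The Gstm7 promoter, of the mu class, had the highest mean pileup of the 151 regions (chr3:107734339-107735477). It had 2.05, 8.19 and 11.8 in STAT5_High livers and 6.41, 8.63 and 11.2 in STAT5_Low livers (-0.22 ± 0.24). The lowest STAT5_High value came from STAT5_High replicate 4, and without that liver the difference was 0.04. The Gstm1 promoter had 5.53 ± 2.12 and 5.83 ± 1.36 (-0.14 ± 0.23). The promoter of Gstp1, a pi-class transferase found at higher levels in male than in female mouse liver, had 1.84, 3.09 and 8.18 in STAT5_High livers and 2.77, 4.57 and 6.92 in STAT5_Low livers (-0.54 ± 0.24, adjusted p = 0.307, limma). STAT5_High replicate 1 gave the 8.18 there. In fold enrichment the difference at Gstp1 was 0.07.

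Theta, kappa and zeta regions also missed the threshold. Theta-class enzymes act on small halogenated compounds among others. A region 234 bp beyond the end of Gstt3 (chr10:75235536-75236626) had 0.899, 2.37 and 4.49 in STAT5_High livers and 2.10, 3.49 and 4.11 in STAT5_Low livers (-0.52 ± 0.24, adjusted p = 0.318, limma). It was a promoter region of a gene outside the conjugation families, and Ddt, RP23-333M15.8 and Cabin1 lay within 10 kb. The Gstt1 intron region, the highest of the theta class, had 4.19 ± 1.36 and 3.8 ± 0.812 (0.12 ± 0.21). At Gstk1, a transferase of mitochondria and peroxisomes, the means were 4.35 ± 1.5 and 4.32 ± 2.03 (0.05 ± 0.25). At the promoter of Gstz1, the maleylacetoacetate isomerase of tyrosine breakdown, they were 4.75 ± 1.83 and 5.36 ± 1.23 (-0.25 ± 0.23).

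Of the 31 regions tested in pileup, 23 had a negative log2 difference, and so did 74.4% of all 11748 regions. Relative to the median of all regions, 14 lay above and 17 below. At an unadjusted p under 0.05, 2 were higher (Sult5a1 and Ugt2b35) and 7 lower (29.0% of the 31, against 13.4% of all regions, for both directions together): 3 in Ugt1, 2 in Gsta, and 1 each in Gstp and Gstt. Over all regions 910 were higher and 668 lower at that level. The Gstt region among the 7 was the one beyond the end of Gstt3, at the promoter of a gene outside the conjugation families. The STAT5 motif lay in 76.4% of the 453 regions called higher over the whole table, in 14.3% of the 28 called lower, and in 28.8% of all regions open in every liver. Among the 31 conjugation regions open in every liver it lay in 7.

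Genes that supply the donors or act beside these enzymes were not called. Of 35 such genes, all of which matched the annotation, 227 regions lay near. They comprised 10 genes of cofactor supply (such as Papss2 and Ugdh), 16 other conjugating and related enzymes (such as Mgst1 and Ephx1) and 9 regulators (such as Nfe2l2 and Nr1i3). Presence was tested at 49 of these regions and pileup at 51, and 0 and 0 were called (Fisher's exact test and limma), where 1.11% and 4.09% of all regions were. At an unadjusted p under 0.05 there were 8 and 6, and over all regions 14.1% and 13.4% reached that level. The median log2 difference in pileup was -0.23 for cofactor supply, -0.14 for the other enzymes and -0.29 for the regulators, against -0.17 over all regions.

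The lists called on pooled reads, with 128701824 tags in STAT5_High and 184748725 in STAT5_Low, found a peak at 141 and 143 of the 151 regions. A pooled peak was found in STAT5_High alone at 5 of them, near Ugt1a6a, Gstm1, Ugt2b37, Ugt2a3 and Ugt2b38. It was found in STAT5_Low alone at 7, near Ugt1a10, Ugt1a6a, Gstt1, Gstm3, Ugt2b34 and Gsta1. Ugt1a6a had regions of both kinds. The matching shares over all regions are not given, so neither count is read as a difference between the classes. The pooled STAT5_High list had a scaled pileup of 0.979 at the Ugt2b38 region, with 8.60-fold enrichment. Another 16 and 38 pooled peaks near these genes overlapped no region of the single livers. A pooled list has no replicates, and its depth differs between the classes.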

How the data were processed

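DNase-seq peak lists of 18 single livers and of the pooled reads of each class were used. Per the file headers, the authors called peaks with MACS2 version 2.1.0.20150731 on uniquely mapped reads without a control, keeping duplicates, with a shift of -100, an extension of 200 bases and a q cutoff of 0.05. The submitters' processing notes name Bowtie2 and the build mm9. The deposited pileup is the signal at the summit, unscaled between libraries. The deposited fold enrichment is a ratio of the summit to its surroundings within a library. The authors' -log10 q served as the stricter threshold of 5.

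Peaks of the single livers sharing 1 bp were merged into regions, and pileup was divided by the header tags. Depth sets what can be called: a liver without a peak may still have an open site. Annotation was GENCODE vM1 and sequence NCBIM37, the same build. Presence was tested with Fisher's exact test (scipy 1.17.1, regions with a peak in 5 to 13 livers), pileup with limma 3.58.1 in R 4.3.3 (regions with a peak in all livers), each adjusted over all regions tested at a threshold of 0.05. Both were tested on simulated data. The members and lists were chosen with earlier results of these data known. Named regions were those called, those with the smallest p of each family in each test, and the highest of each family; Ugt2b37, Ugt2a1, Sult4a1 and other promoters were named after their values were seen. Alternatives were median scaling, fold enrichment, a pseudocount, other peak, overlap and occupancy filters, collection terms, single collections and left-out livers.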

Additional observations from a re-analysis of the deposited data

Results flagged for a closer look

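Values of 47 groups of livers were examined, those of the 25 named regions and the number of regions with a peak, for a liver whose gap to the nearest other exceeded the 95% critical value of Dixon's test for its group size, and 7 were. Chance gives about 1 in 20 groups. STAT5_High replicate 4 had a peak at 45 of the 151 regions, against 74 to 100 in the other STAT5_High livers. STAT5_High replicate 1 had high scaled pileup at the Gsta2 region (2.82, against 0.706 to 1.63 in the rest of its class), at the Gstp1 promoter (8.18, against 1.84 to 4.29), at the Gstt2 promoter (3.04, against 1.37 to 2.00) and at the Ugt3a1 promoter (2.68, against 1.61 to 2.06). STAT5_High replicate 5 had 7.28 at the Gstt1 intron region, against 2.95 to 4.85. STAT5_Low replicate 7 had 4.83 at the region upstream of Ugt3a1, against 1.64 to 3.14. Without STAT5_High replicate 1 the log2 difference at Gsta2 was -1.0.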

How the results depend on the processing

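The presence count of 0 conjugation regions held in each direction without any single liver (0 to 0) and under all other settings but the equal number of top peaks, which called 2 higher in STAT5_High. The pileup count higher in STAT5_High, 1, was 2 with median scaling, with the pseudocount and with the replicate block, 4 with a peak in at least 4 livers of each class, 0 within G74A, 0 within G92, and 0 to 2 without single livers. The count lower, 1, was 3 with median scaling, 0 with fold enrichment, 0 with -log10 q of 5 or more, 0 within G74A and G92, 2 within G99, and 0 to 2 without single livers. The occupied shares ran from 55.9% to 61.0% in STAT5_High and from 64.7% to 66.1% in STAT5_Low without single livers.

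Over all regions, presence counts of 153 higher and 21 lower became 47 and 1 with regions occupied in 1 to 17 livers, 455 and 40 with equal top peaks, 0 and 0 stratified by collection, 0 and 0 with the replicate block, and 156 to 251 and 22 to 43 without single livers. Pileup counts of 453 higher and 28 lower became 864 and 145 with median scaling, 1056 and 53 with at least 4 livers of each class, and 0 and 0 within G92. The lower count was also 16 with the stricter q, 0 within G74A, 161 within G99 and 107 with the replicate block. Without single livers the counts ran from 323 to 823 (the highest without STAT5_High replicate 4) and from 11 (without STAT5_High replicate 3) to 90 (without STAT5_High replicate 1). The causes were not tested.

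Among uncalled regions, 34 values of 637 changed sign: within G74A Ugt1a9 (0.18), Gstt3 (0.04), Gstz1 (0.33), Gstp1 (0.17) and Gstm7 (0.08); Gstp1 in fold enrichment (0.07); Sult1a1 with median scaling (0.07), in fold enrichment (0.09), within G74A and G92 (0.15 each); Gstk1 with collection as covariate (-0.11), within G92 (-0.50) and within G99 (-0.15); and Gstt2 presence with the stricter q (-12.5 percentage points). Gstk1 presence was equal in the classes (0) with the replicate block. Without single livers, ranges that crossed 0 were -0.01 to 0.18 for Gstt1, -0.32 to 0.04 for Gstm7, -0.04 to 0.21 for Gstk1 pileup, -11.4 to 4.17 percentage points for Gstk1 presence, and -0.15 to 0.03 for Sult1a1.

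The replicate numbers did not pair the livers: correlations of same-numbered livers ran from -0.158 to 0.378, 4 of 8 exceeded 0.1, and 1 of 8 was best with its own number. The block left Sult5a1 (0.85) and Gsta2 (-0.78) called.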
